A study of Mus musculus with 2 samples.

Results

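Cxcl1, Cxcl2, Cxcl3, Cxcl5, Cxcl15, Cxcr2, Cxcl12 and Cxcr4 are 8 mouse genes of the CXC chemokine system: the ligands that attract neutrophils, their receptor Cxcr2, and the separate pair of Cxcl12 and its receptor Cxcr4. They were taken by symbol from the gene tables of both lung libraries, where each symbol stood on 1 of 32285 gene IDs. All 8 had at least 20 counts over both libraries. The question was which cell classes held the ligand transcripts, which held the receptors, and how these differed between an injured and a control lung.

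CXC chemokines are small secreted proteins that guide leukocytes through G protein-coupled receptors. Cxcl1, Cxcl2, Cxcl3 and Cxcl5 bind Cxcr2 and draw neutrophils out of the blood, and macrophages, neutrophils, epithelium and stroma can all make some of them. Cxcl15, also called lungkine, is a mouse chemokine made by lung epithelium. Cxcl12 acts through Cxcr4, a pair best known for keeping neutrophils and their precursors in the bone marrow and for the positioning of lymphocytes.

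Both libraries came from C57BL/6 mice with the I73T mutation of surfactant protein C, a protein of alveolar type 2 cells, and were prepared by 10x 3′ v3 chemistry from collagenase digests of whole lung. The injured group was lung at 14 days post injury and the control group lung at steady state. In this line 1 gavage of tamoxifen at 175 mg/kg cuts out a neomycin cassette and so raises the mutant protein, and the control animals carry the mutation too. A gavage of corn oil is also named, without the animals that received it. Lungs had been lavaged and perfused first, which can remove cells lying loose in the airspaces. How many were removed was not measured. Alveolar macrophage-like cells still made up 19.4% of injured and 18.6% of control cells after filtering. Each group was 1 library, the number of animals behind it was not given, and the treatment tags contradict the titles: "untreated" stands on the injured title and "tamoxifen treated" on the control title. Groups follow the titles, and every direction below holds for the libraries as titled.

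The ligands other than Cxcl12 are neighbours on chromosome 5. In GENCODE M21 on GRCm38 they follow each other on the plus strand within 146.579 kb: Cxcl5 (ENSMUSG00000029371) from 90759360 to 90761624, Cxcl3 (ENSMUSG00000029379) from 90786103 to 90789600, Cxcl15 (ENSMUSG00000029375) from 90794534 to 90803067, Cxcl1 (ENSMUSG00000029380) from 90891241 to 90893115 and Cxcl2 (ENSMUSG00000058427) from 90903871 to 90905938. Cxcr2 (ENSMUSG00000026180) lies on chromosome 1 from 74153989 to 74161246 on the plus strand, and Cxcr4 (ENSMUSG00000045382) on chromosome 1 from 128588199 to 128592293 on the minus strand. Cxcl12 (ENSMUSG00000061353) lies on chromosome 6 from 117168535 to 117181367 on the plus strand. All are protein-coding, and Gm24322 overlaps Cxcl15 on the other strand. Transcripts of Cxcl2 and Cxcl3 share an exact run of 157 bases, so reads from that run cannot be told apart between the pair and their counts carry that uncertainty. The run ends 1849 bases before the 3′ end of the compared Cxcl2 transcript and 3285 bases before that of Cxcl3. These transcripts, of 2066 and 3498 bases, are about as long as their genes and so include introns. In spliced transcripts the distances would be shorter, and they were not measured. No other pair of the 8 genes shared more than 23 bases.

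Upstream sequence is shown for 4 of these neighbours because their transcripts lay in different cells: Cxcl1, Cxcl2 and Cxcl3 mostly in myeloid and mesothelial cells, Cxcl15 in epithelium. Each stretch is the 250 bases before the transcript start in RefSeq on GRCm38.p6, plus strand. Capitals mark GGGAATTTCCC, the longest run of letters that the stretches of Cxcl1, Cxcl2 and Cxcl3 have in common, which holds a form of the motif bound by NF-kB.

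Cxcl1, chr5:90890995-90891244: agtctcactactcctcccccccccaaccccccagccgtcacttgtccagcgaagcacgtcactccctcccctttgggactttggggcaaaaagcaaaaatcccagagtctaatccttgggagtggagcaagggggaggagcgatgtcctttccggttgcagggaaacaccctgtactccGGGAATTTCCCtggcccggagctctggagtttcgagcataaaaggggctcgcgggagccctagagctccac
Cxcl2, chr5:90903649-90903898: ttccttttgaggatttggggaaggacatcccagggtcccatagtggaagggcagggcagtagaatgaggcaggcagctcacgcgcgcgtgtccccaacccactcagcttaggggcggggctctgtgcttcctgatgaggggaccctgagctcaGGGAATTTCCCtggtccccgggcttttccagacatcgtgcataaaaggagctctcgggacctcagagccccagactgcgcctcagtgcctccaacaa
Cxcl3, chr5:90785851-90786100: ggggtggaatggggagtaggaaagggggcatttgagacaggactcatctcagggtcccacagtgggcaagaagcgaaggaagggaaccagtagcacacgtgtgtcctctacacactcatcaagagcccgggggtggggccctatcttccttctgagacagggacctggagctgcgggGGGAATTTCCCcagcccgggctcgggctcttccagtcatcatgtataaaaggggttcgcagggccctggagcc
Cxcl15, chr5:90794284-90794533: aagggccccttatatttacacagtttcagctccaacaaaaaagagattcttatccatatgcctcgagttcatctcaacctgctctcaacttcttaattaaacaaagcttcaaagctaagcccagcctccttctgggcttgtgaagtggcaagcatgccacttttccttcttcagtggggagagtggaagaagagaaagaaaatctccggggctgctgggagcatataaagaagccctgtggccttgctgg

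The run began 71, 97 and 73 bases before the RefSeq transcript start of Cxcl1, Cxcl2 and Cxcl3. The stretches of Cxcl1 and Cxcl2 end at 90891244 and 90903898, past the GENCODE gene starts of 90891241 and 90903871. These distances therefore depend on the annotation. Since it was picked from these 3 stretches, its presence in them is no finding. A promoter entry was found for 7 of the 8 genes, and Cxcl15, Cxcr2, Cxcl12 and Cxcr4 had no match on either strand. Among 32851 promoter stretches of that length 14 (0.0426%) held it on either strand. A match describes letters and shows no binding.

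After filtering 2302 injured and 2298 control cells remained, with 19956593 and 16016185 UMIs (unique molecular identifiers, which count captured transcripts) and medians of 3277.5 and 4487 UMIs a cell. The libraries shared 1 cell barcode. Cells were clustered without the 8 genes, and 24 clusters were named from marker lists free of them, which gave 18 classes. Neutrophil-like cells numbered 587 injured and 126 control, interstitial macrophage-like cells 341 and 11, blood endothelial-like cells 92 and 392, and B cell-like cells 58 and 316. All 10 neutrophil markers were at least 3-fold above other cells in the neutrophil-like class of both libraries. With 1 library per group no test across animals could be run. Intervals are exact 95% intervals that cover counting error only. Beside a count of 0, the level or share it allows is that of 3 counts, which lies below the exact upper limit. The words "higher" and "lower" are calls of size: a ratio of 1.5 or more in CPM, the count of a gene scaled to the same total of UMIs in each library or class.

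Over all cells, 5 of the 8 genes were higher in the injured library (Cxcl1, Cxcl2, Cxcl3, Cxcl5 and Cxcr2) and 1 was lower (Cxcl12). The same size rule called 20.5% of all 14573 genes with 20 counts higher and 15.9% lower. The median log2 ratio, with 10 CPM added on both sides, was 0.36 for the 8 genes and 0.03 for all genes. In such sums fewer cells of a type and less RNA per cell cannot be told apart.

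Cxcl2 had 10199 UMIs in the injured library against 3721 in the control library, or 511 CPM against 232 CPM, a ratio of 2.20 (2.12–2.28). Cxcl3 had 343 UMIs against 48, or 17.2 CPM against 2.997 CPM, a ratio of 5.73 (4.23–7.93). Cxcr2 had 1576 UMIs against 535, or 79.0 CPM against 33.4 CPM, a ratio of 2.36 (2.14–2.61). Ligand and receptor transcripts of the neutrophil pathway were thus both higher in the injured lung as a whole. Cxcl1 had 332 UMIs against 123, or 16.6 CPM against 7.68 CPM, a ratio of 2.17 (1.76–2.69). Cxcl5 was barely captured, with 21 UMIs against 6 and a ratio of 2.81 (1.10–8.51), and as a mean over cells it turned to a log2 ratio of -0.10. Cxcl12 ran the other way, with 353 UMIs against 1098, or 17.7 CPM against 68.6 CPM, 3.88-fold lower in the injured library (3.43–4.38). Cxcl15 (95.4 CPM against 86.4 CPM) and Cxcr4 (129 CPM against 117 CPM) were under the size rule, both with a ratio of 1.10. These sums weigh a cell by its UMIs, and several values moved when cells counted equally. As a mean over cells the ratio was 4.80 for Cxcl2, 32.4 for Cxcl3 and 3.96 for Cxcr2, and thinning every cell to 1000 UMIs gave 4.82, 22.2 and 4.01. Cxcr4 then became higher, with ratios of 2.22 as a mean over cells and 2.01 thinned, and Cxcl15 lower, with ratios of 0.404 and 0.465.

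**Figure D1:**
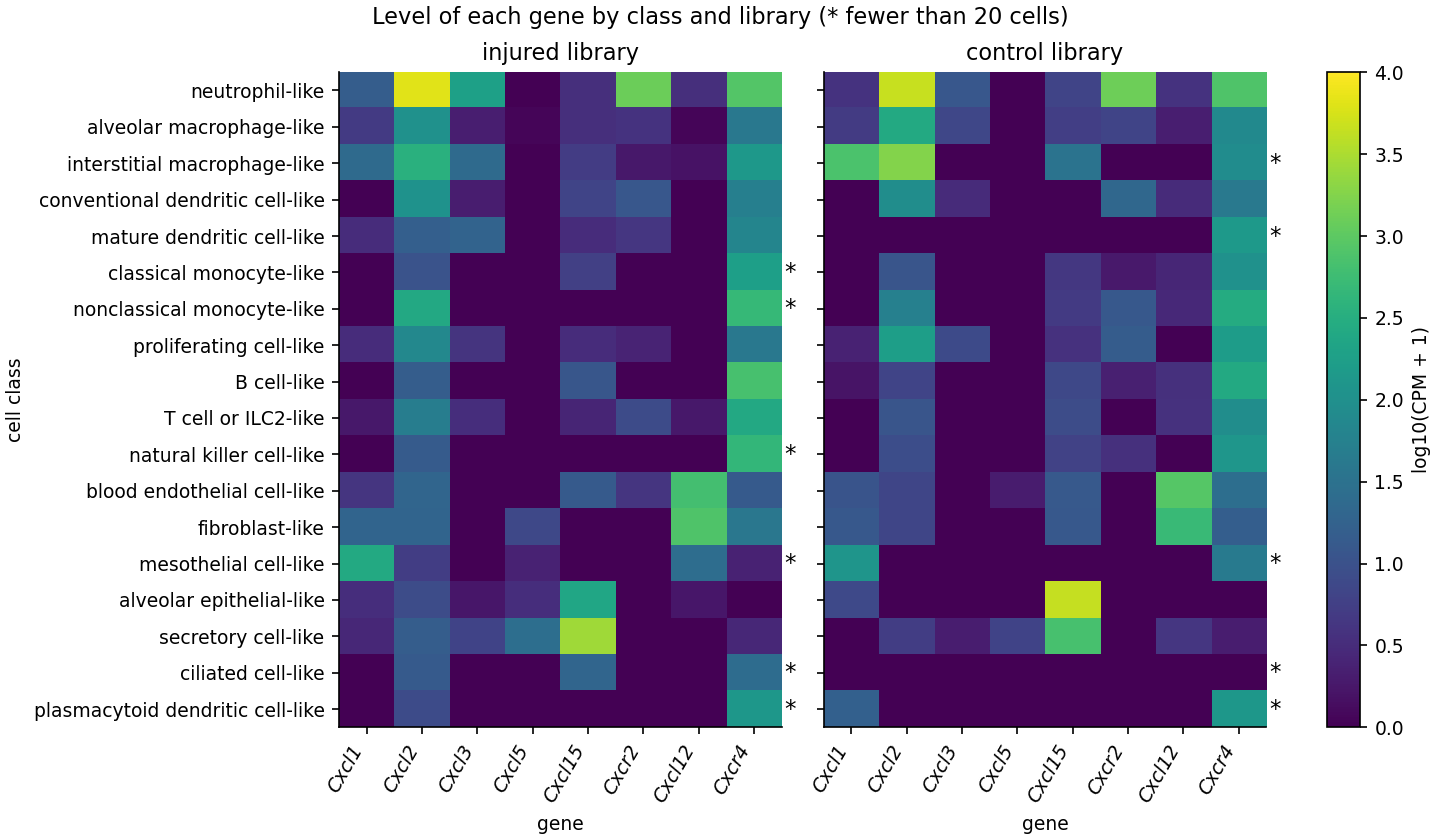
Level of the 8 genes, as log10(CPM + 1) from summed counts, in each class of the injured library (left panel) and the control library (right panel); stars mark classes with fewer than 20 cells in that library. Cxcr2 is brightest in the neutrophil-like row of both panels, Cxcl12 in the endothelial-like and fibroblast-like rows, and Cxcl15 in the alveolar epithelial-like and secretory cell-like rows.

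Neutrophil-like cells held most Cxcr2 and also had the highest Cxcl2 level of any class. Cxcl2, which neutrophils can release to call in further neutrophils, stood at 6494 CPM (6352–6639) in injured neutrophil-like cells and 4669.9 CPM (4449–4899) in control ones. In the injured library interstitial macrophage-like cells came next at 346 CPM (327–365). Alveolar macrophage-like cells had 103 CPM (95.2–111) in the injured lung and 265 CPM (252–278) in the control lung. Conventional dendritic cell-like cells were at 108 CPM (87.9–132), within the error of the alveolar macrophage-like level, in the injured lung and at 91.9 CPM (66.8–123) in the control lung. Of their 44 control UMIs 38 (86.4%) lay in 1 cell, and of their 97 injured UMIs 39 (40.2%) did. Their log2 ratio of 0.22 came to -2.14 with the libraries clustered separately, -1.96 with a mitochondrial limit of 25% and -0.37 thinned, so no direction is read from it.

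Neutrophil-like cells accounted for 77.7% of injured Cxcl2 UMIs and 45.0% of control ones. Alveolar macrophage-like cells accounted for 6.79% of injured and 43.7% of control Cxcl2. Cxcl2 transcripts of the control lung were thus split about evenly between these classes, and those of the injured lung lay mostly in neutrophil-like cells, with 12.3% in interstitial macrophage-like cells.

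**Figure D2:**
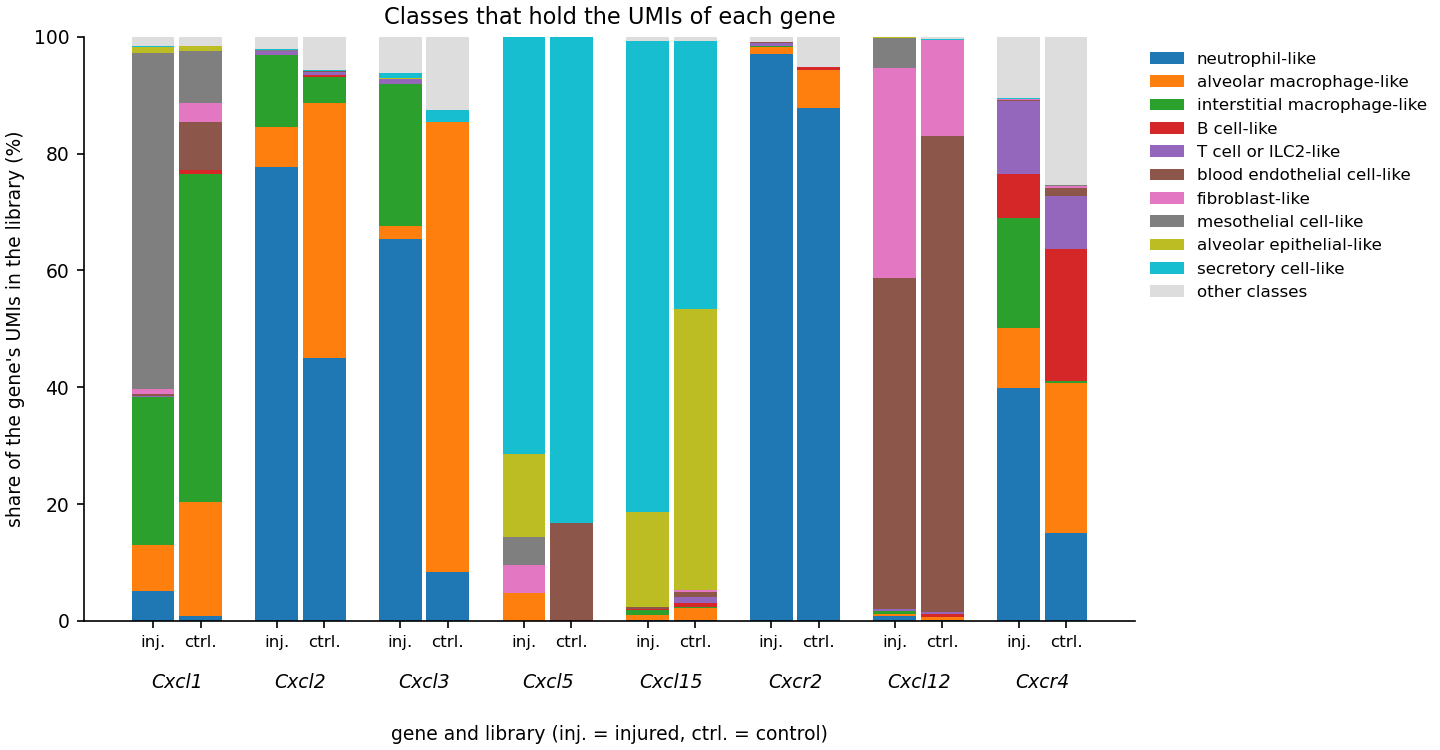
Share of the UMIs of each gene (%) held by each class, with the injured (inj.) bar left of the control (ctrl.) bar. Neutrophil-like cells hold 77.7% of injured and 45.0% of control Cxcl2, and alveolar macrophage-like cells 6.79% and 43.7%; the Cxcl5 bars rest on 21 and 6 UMIs.

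Inside the neutrophil-like class the Cxcl2 ratio was 1.39 (1.32–1.47), under the size rule. Of the 4 genes of the set with 20 counts there, Cxcl3 was higher and none was lower, while 50.6% of 6258 genes were higher and 9.27% lower. The median gene of the class lay at a log2 ratio of 0.47, and other scalings of the libraries would move the zero by 0.58 (median-of-ratios size factors) or 0.39 (TMM, the trimmed mean of M values). Cxcl2 itself had a log2 ratio of 0.47, the place of the median gene, and came to -0.10 and 0.08 under those scalings, so its direction in the class as a whole depends on the scaling. With the libraries clustered separately the log2 ratio was 1.16.

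The class consisted of clusters 0 and 7, which differed in Cxcl2. Cluster 7 held cells of both libraries (160 injured, 121 control) and was led by Retnlg, Mmp8 and S100a9, known from circulating neutrophils. Cluster 0 was nearly all injured (427 and 5 cells), was led by Csf1, Cd177 and Egln3, and had 8 of 10 neutrophil markers passing. Summed neutrophil markers were 70635 CPM in injured cells of cluster 0 and 142564 CPM in those of cluster 7, against 149052 CPM in control cells of cluster 7. Of 6 eosinophil markers 2 (Epx and Il5ra) were at 0 in injured cells of cluster 0, and the list summed to 26 UMIs, or 31.1 CPM. Summed alveolar macrophage markers, which include Chil3 and Siglecf, were 2936 CPM in injured cells of cluster 0 and 416 CPM in those of cluster 7, against 239 CPM in control cells of cluster 7. The part of such RNA in the values of cluster 0 was not tested.

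In cluster 7 Cxcl2 stood at 10978 CPM in injured cells against 5001 CPM in control cells, a ratio of 2.20 (2.07–2.32). The log2 ratio of 1.13 there came to 1.05 and 1.01 under the other scalings. Injured cells of cluster 0 had 4430.2 CPM (4289–4575). Within the shared cluster Cxcl2 was thus higher in injured cells under each scaling, and the cluster found almost only in the injured library lay below both.

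Shares of cells were compared with every cell thinned to 1000 UMIs, which left out 276 injured and 339 control cells with fewer. Cxcl2 UMIs occurred in 80.3% (73.2–86.2; 126 of 157) of injured and 66.1% (56.4–74.9; 72 of 109) of control cells of cluster 7, and in 43.8% (38.7–48.9; 168 of 384) of injured cells of cluster 0. For the whole class the share was 54.3% (50.04–58.6; 294 of 541) among injured and 63.7% (54.1–72.6; 72 of 113) among control cells. Unthinned it was 59.5% and 72.2%, with median depths of 2058 and 2690.5 UMIs. These class shares run against the CPM, so no order is read from them. As a background, B cell-like cells, which should lack Cxcl2, gave 0 of 58 injured cells, which allows a share of up to 5.17%, and 4 of 313 control cells, at median depths before thinning of 3381.5 and 4485 UMIs.

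Cxcl2 was spread very unevenly over neutrophil-like cells. The 59 injured and 13 control cells with most of it held 52.9% and 48.9% of the class total. At 1000 UMIs the median cell had 1 Cxcl2 UMI in the injured and 2 in the control lung, the upper quartile was 8 and 6, and the highest cell had 84 and 29. Cells with 10 or more were 22.2% (18.7–25.9) of injured and 16.8% (10.4–25.01) of control cells, intervals that overlap.

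**Figure D3:**
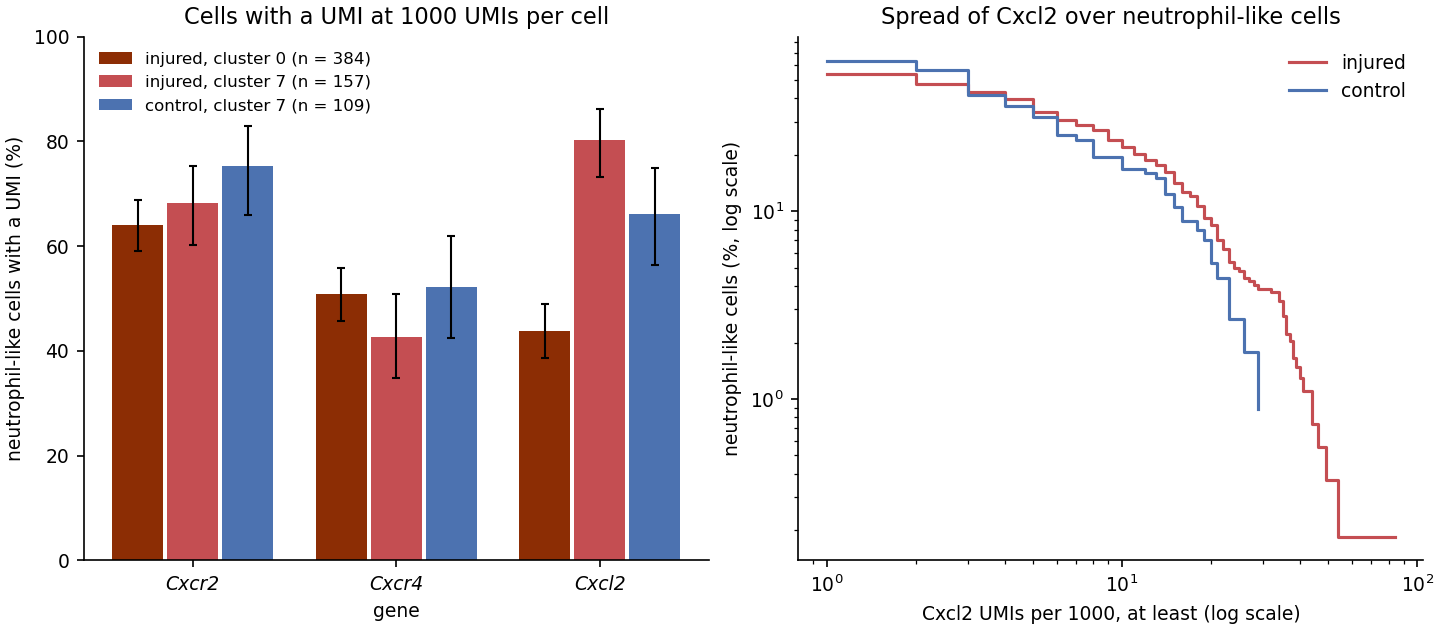
Left, share (%) of neutrophil-like cells with a UMI of Cxcr2, Cxcr4 or Cxcl2 at 1000 UMIs per cell, by library and cluster, with exact 95% binomial intervals. Right, share of neutrophil-like cells (%, log scale) with at least the given number of Cxcl2 UMIs per 1000 (log scale), for injured and control cells; the injured curve ends at 84 UMIs and the control curve at 29.

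Cxcl3, a close relative of Cxcl2, differed more inside neutrophil-like cells than the other members with 20 counts there. It had 224 UMIs in the injured class against 4 in the control class, or 183 CPM against 11.2 CPM, a ratio of 16.4 (6.33–60.9). Within cluster 7 the ratio was 15.6 (5.85–59.0), from 72 and 4 UMIs, and its log2 value of 3.17 came to 3.10 and 3.07 under the other scalings. Injured cells of cluster 0 were at 182 CPM (154–213) and those of cluster 7 at 187 CPM (146–236), so the level did not follow the clusters as that of Cxcl2 did. Few cells carried Cxcl3: 44 of 587 injured and 3 of 126 control neutrophil-like cells, with 31.7% of the injured UMIs in 3 cells. Neutrophil-like cells held 65.3% of injured and 8.33% of control Cxcl3 UMIs. In the control lung 37 of 48 lay in alveolar macrophage-like cells, and in the injured lung 83 of 343 in interstitial macrophage-like cells (22.8 CPM).

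Alveolar macrophage-like cells had lower Cxcl2, Cxcl3 and Cxcr4 in the injured lung. By the size rule 5 of 6 genes with 20 counts were lower (these and Cxcl15 and Cxcr2) and none higher, beside 20.5% of 10657 genes lower and 13.1% higher. Cxcl15 stood at 2.52 CPM in injured cells against 4.55 CPM in control cells, a ratio of 0.55 with an interval that includes 1 (0.28–1.05), and lay below B cell-like cells at 10.6 CPM and 6.33 CPM, a class that should lack it. Cxcr2 UMIs occurred after thinning in 2 of 384 injured and 2 of 370 control cells, against 0 of 58 and 1 of 313 B cell-like cells. Neither gene is therefore read as expressed in this class. The median log2 ratio was -0.40 for the 6 genes and -0.07 for all, and the other scalings move the zero by -0.12 (both). Cxcl2 had 693 UMIs in 447 injured cells against 1627 in 427 control cells, 2.58-fold lower (2.35–2.82). Cxcl3 had 8 UMIs against 37, 5.07-fold lower (2.33–12.6). Both ligands were thus scarcer in this class, while Cxcl1 at 3.85 CPM against 3.90 CPM had a ratio of 0.99 (0.54–1.80). As a mean over cells the log2 ratio of Cxcl3 turned to 0.14 and that of Cxcl15, which rests on 17 and 28 UMIs, to 0.32.

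Different clusters made up this class. Cluster 4 was all injured (340 cells), cluster 5 almost all control (2 and 324 cells), and cluster 9, with median depths of 875 and 975 UMIs, was shared (105 and 103). Cxcl2 was at 104 CPM in injured cells of cluster 4 and 269.6 CPM in control cells of cluster 5, where library and cluster cannot be told apart. In cluster 9 it was 66.1 CPM from 9 UMIs against 83.5 CPM from 14, a ratio of 0.79 (0.30–1.96), so a difference of that size was not detectable in the shared cells. Thinned, Cxcl2 UMIs occurred in 6.77% (4.47–9.76; 26 of 384) of injured and 11.6% (8.54–15.3; 43 of 370) of control alveolar macrophage-like cells, and unthinned in 30.4% and 31.6%.

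In T cell or ILC2-like cells Cxcl2 had 62 UMIs in 18 of 217 injured cells against 19 in 6 of 308 control cells, 4.84-fold higher (2.85–8.57). Both members with 20 counts in this class, Cxcl2 and Cxcr4, were higher, beside 38.7% of 8769 genes higher and 5.36% lower, and the other scalings move the zero by 0.41 and 0.43. Most injured cells lay in cluster 8 (147 and 84 cells) and most control cells in T cell-like cluster 6 (70 and 224 cells). Cluster 8 was led by Cxcr6, Icos, Ikzf2, Ctla4, Il2ra, Il1rl1, Gata3, Thy1, Tnfrsf4 and Il7r, of which Ikzf2, Ctla4 and Tnfrsf4 are known from regulatory T cells and Il1rl1, Gata3 and Il7r were on the ILC2 list. It passed 7 of 10 T cell markers and 4 of 9 ILC2 markers, and so has no name of its own within the class. Within cluster 8 the Cxcl2 ratio was 1.98 (1.12–3.68). Thinned shares of 2.30% injured and 0.660% control (8.29% and 1.95% unthinned) were near the B cell-like background, so these UMIs are not read as expression.

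Cxcl1, known as a product of activated macrophages and stroma, came from few cells. It was found in 49 injured and 23 control cells, and 3 cells held 44.3% and 71.5% of its UMIs. In the injured lung 191 of 332 UMIs lay in 19 mesothelial cell-like cells, cells of the lung lining, of which 12 had Cxcl1, at 272 CPM (235–314). The 8 control cells of that class had 11 UMIs, all in 1 cell, at 119 CPM (59.3–213). Classes this small were not compared. In the control lung 1 interstitial macrophage-like cell carried 68 of 123 Cxcl1 UMIs and also 165 Cxcl2 UMIs among its 18815. Without the highest cell of each library the Cxcl1 log2 ratio over all cells was 0.82 in place of 0.59. Among neutrophil-like cells Cxcl1 UMIs occurred in 5 of 587 injured and 1 of 126 control cells.

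Cxcl5, known in mouse lung as an epithelial attractant of neutrophils, was too rare for more than a count. Secretory cell-like cells held 15 of its 21 injured and 5 of its 6 control UMIs, in 9 of 81 and 4 of 117 cells. The ratio there was 4.83 (1.67–17.0), and as a mean over cells it turned to a log2 value of -0.32.

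Cxcl15 was an epithelial transcript in both lungs, and its epithelial classes differed in opposite directions. Secretory cell-like cells, the airway cells that make secretoglobins, had 1536 Cxcl15 UMIs in 81 injured cells against 636 in 117 control cells. Their level was 2705 CPM (2571–2843) against 696 CPM (643–752), a ratio of 3.89 (3.54–4.27). Alveolar epithelial-like cells had 309 UMIs in 101 injured cells against 665 in 83 control cells, or 235 CPM against 4462 CPM, 19.0-fold lower (16.6–21.8). Secretory cell-like cells held 80.7% of injured and 46.0% of control Cxcl15, and alveolar epithelial-like cells 16.2% and 48.0%. The near equal summed levels over all cells thus stood beside opposite differences in these classes, and with cells counted equally Cxcl15 was lower over all cells.

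Both genes of the set with 20 counts in secretory cell-like cells, Cxcl5 and Cxcl15, were higher, beside 41.0% of 2833 genes higher and 10.0% lower. Secretory markers alone took up 476122 CPM of the injured and 606507 CPM of the control class, and the other scalings move the zero by 0.37 and 0.68, which left the Cxcl15 log2 ratio of 1.94 at 1.58 and 1.27. The highest injured cell had 343 Cxcl15 UMIs, and 3 cells held 51.1% of the injured and 38.5% of the control class total; without the highest cell of each library the log2 ratio was 1.90. Thinned, Cxcl15 UMIs occurred in 47.6% (34.9–60.6; 30 of 63) of injured and 25.9% (18.1–35.0; 29 of 112) of control cells of the class. Unthinned the order turned, with 60.5% and 69.2% at median depths of 2395 and 4987 UMIs. B cell-like cells gave 0 of 58 injured and 3 of 313 control cells.

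The alveolar epithelial-like class was not alike in both lungs. Of its injured cells 83 lay in cluster 18, led by the alveolar type 1 genes Ager and Aqp5 and by Krt8, at a median of 13577 UMIs, and of its control cells 63 lay in cluster 20, led by the type 2 genes Sftpc and Sftpa1, at a median of 1225 UMIs. Cxcl15 was the 1 member with 20 counts in the class and was lower, beside 12.1% of 7711 genes lower and 54.2% higher, and the other scalings move the zero by 0.59 and 0.33. Within cluster 20 Cxcl15 stood at 2959.8 CPM (2458–3534) in 18 injured cells and 7609 CPM (7042–8210) in 63 control cells. In cluster 18 it was 147 CPM (126–169) in 83 injured cells, with 0 UMIs in 20 control cells, which allows up to 48.7 CPM. Much of the gap in the class therefore lay between clusters, and the value within the type 2-like cluster rests on 18 injured cells.

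**Figure D4:**
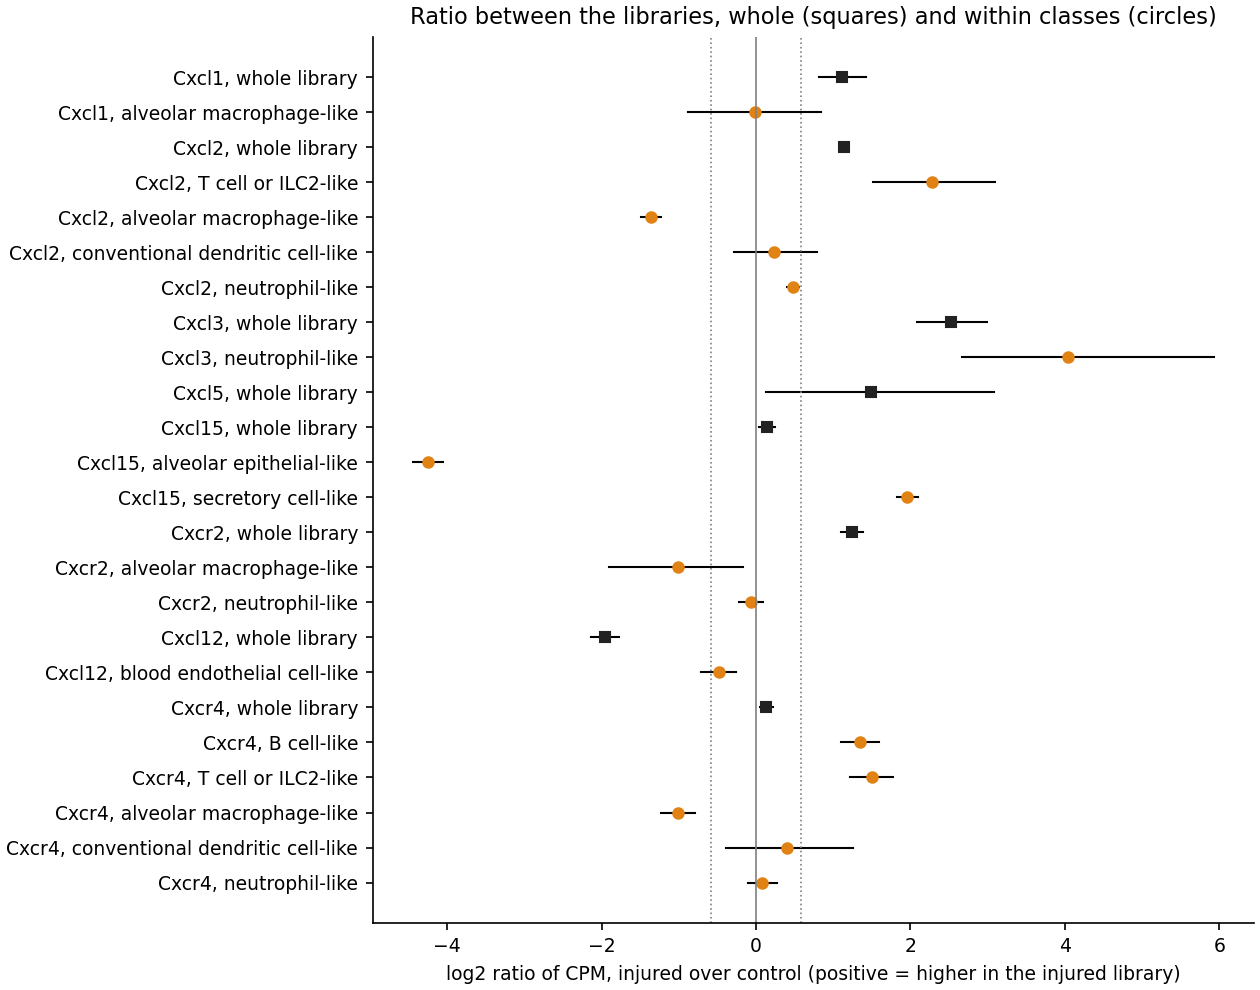
Log2 ratio of CPM, injured over control, with no CPM added, for each gene over all cells (squares) and in classes with 50 or more cells in each library and 50 or more counts of the gene (circles), with exact 95% intervals for counting error; dotted lines mark 1.5-fold. Cxcl15 lies right of the lines in secretory cell-like and left of them in alveolar epithelial-like cells, and Cxcr2 in neutrophil-like cells lies near zero.

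Cxcr2 was a neutrophil transcript in both lungs. Neutrophil-like cells held 1529 of 1576 injured Cxcr2 UMIs (97.0%) and 470 of 535 control ones (87.9%). Their level was 1252 CPM (1190.3–1317) in injured cells and 1311 CPM (1195–1435) in control cells, a ratio of 0.96 (0.86–1.06). The ratio of 2.36 over all cells thus stood beside a larger share of neutrophil-like UMIs, 6.12% of the injured and 2.24% of the control total, and not beside a higher level in the class. Against the median gene of the class Cxcr2 lay lower, at log2 ratios of -0.64 and -0.46 under the other scalings in place of -0.07. Within cluster 7 it was 1143 CPM in injured cells against 1375 CPM in control cells, a ratio of 0.83 (0.73–0.95), and injured cells of cluster 0 had 1302 CPM (1226–1382).

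Thinned, Cxcr2 UMIs occurred in 65.2% (61.1–69.3; 353 of 541) of injured and 74.3% (65.3–82.1; 84 of 113) of control neutrophil-like cells, against 0 of 58 and 1 of 313 B cell-like cells; unthinned, the neutrophil-like shares were 79.6% and 89.7%. Other classes held little of it: 19 and 35 UMIs in alveolar macrophage-like cells, 10 and 10 in conventional dendritic cell-like cells, and 0 in alveolar epithelial-like cells, which allows up to 2.28 CPM among injured cells and 20.1 CPM among control cells. Ligand and receptor were often found in the same cell. Cxcl2 and Cxcr2 together were found in 34.9% (30.9–39.1; 189 of 541) of injured and 51.3% (41.7–60.8; 58 of 113) of control neutrophil-like cells. In cluster 7 the shares were 54.1% (46.0–62.1) injured and 53.2% (43.4–62.8) control, and in injured cells of cluster 0 27.1% (22.7–31.8). The lower joint share of the injured class thus lay with cluster 0, and the shared cluster had like joint shares in both lungs within these intervals. The single shares of cluster 7 were less alike. Cxcl2 was in 80.3% of injured and 66.1% of control cells, and Cxcr2 in 68.2% and 75.2%.

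Siglecf and Csf1 are known from neutrophils that have taken on a tissue state. Of injured neutrophil-like cells 229 had a thinned UMI of either gene, and 46.3% (39.7–53.0) of them had Cxcl2, 64.2% (57.6–70.4) Cxcr2 and 55.0% (48.3–61.6) Cxcr4. Of the 312 without one, 60.3% (54.6–65.7) had Cxcl2, 66.0% (60.5–71.3) Cxcr2 and 43.6% (38.0–49.3) Cxcr4. The Cxcl2 intervals do not overlap, those of Cxcr4 overlap slightly and those of Cxcr2 widely. Csf1 also led cluster 0, where 43.8% of injured cells had Cxcl2, against 80.3% in cluster 7. The split was not made within a cluster, so it cannot be told apart from the clusters. All these cells come from 1 library and 1 thinned depth, where a UMI of one gene takes the place of another.

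Cxcr4 had many holders. Among classes compared in both lungs its injured level was highest in neutrophil-like cells at 839 CPM (788–892), next in B cell-like cells at 685 CPM (592–789), with intervals that overlap, and then in T cell or ILC2-like cells at 255 CPM (228–285). The control order was the same, with neutrophil-like cells at 792 CPM (703–890.0), B cell-like cells at 269 CPM (244–296) and T cell or ILC2-like cells at 90.4 CPM (77.3–105). The neutrophil-like ratio was 1.06 (0.93–1.21), and within cluster 7 it was 0.82 (0.69–0.98), from 681 CPM in injured cells against 828 CPM in control cells. Injured cells of cluster 0 had 911 CPM (848–978). Neutrophil-like Cxcr4 was thus under the size rule throughout, and its sign depends on the scaling, with log2 ratios of -0.49 and -0.31 under the other scalings in place of 0.08.

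Lymphoid cells differed more. Cxcr4, which positions B cells within lymphoid tissue, was 2.55-fold higher (2.14–3.03) in B cell-like cells, from 194 UMIs in 58 injured cells against 425 in 316 control cells. It was the 1 gene of the set with 20 counts there, beside 21.2% of 7136 genes higher and 19.5% lower, and the other scalings move the zero by 0.03 and 0.16. In T cell or ILC2-like cells it was 2.82-fold higher (2.34–3.42), from 320 UMIs against 168. The ratio was 2.18 in T cell-like cluster 6, from 63 UMIs against 112, and 2.42 (1.81–3.29) in cluster 8, so both clusters differed in the direction of the class. Thinned, Cxcr4 UMIs occurred in 55.2% (41.5–68.3; 32 of 58) of injured and 25.6% (20.8–30.8; 80 of 313) of control B cell-like cells, and unthinned in 86.2% and 62.7%. In T cell or ILC2-like cells the thinned shares were 17.97% (13.1–23.7) and 9.24% (6.23–13.1), and the unthinned ones 63.6% and 34.4%. Secretory cell-like cells, as a background, gave 0 of 63 injured and 0 of 112 control cells, which allows shares of up to 4.76% and 2.68%.

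In alveolar macrophage-like cells Cxcr4 was 2.01-fold lower (1.73–2.35), at 38.8 CPM in injured cells against 78.2 CPM in control cells. In conventional dendritic cell-like cells it was 52.5 CPM against 39.7 CPM, a ratio of 1.32 (0.76–2.39). Of the 3 members with 20 counts in the dendritic class 1 was lower, Cxcr2 from 10 UMIs in each lung with an interval of the ratio that includes 1 (0.20–1.43), and none higher, beside 12.9% of 6611 genes lower and 23.4% higher. Cxcr4 thus differed in opposite directions in lymphoid and alveolar macrophage-like cells.

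Cxcl12 lay mostly in endothelial-like and fibroblast-like cells. Blood endothelial-like cells held 200 of 353 injured UMIs (56.7%) and 895 of 1098 control ones (81.5%), and fibroblast-like cells 127 (36.0%) and 179 (16.3%). The endothelial-like level was 638 CPM (553–733) in injured cells and 890.4 CPM (833–951) in control cells, a ratio of 0.72 (0.61–0.84), under the size rule. In 40 injured and 79 control fibroblast-like cells it was 792 CPM (660.0–942) and 518 CPM (445–599.7), and this class was too small to compare. The 3.88-fold lower value over all cells thus stood beside endothelial-like cells that gave 1.57% of injured and 6.28% of control UMIs.

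The endothelial-like clusters were unlike in Cxcl12. Cluster 12 (27 injured and 113 control cells, medians of 4543 and 4515 UMIs) had 1147 CPM (987–1324) in injured cells and 1192 CPM (1107–1283) in control cells. Cluster 3 (65 and 279 cells, medians of 901 and 893 UMIs), led by Prx, Epas1 and Kdr, had 98.6 CPM from 15 UMIs in injured cells and 441 CPM from 178 UMIs in control cells, a ratio of 0.22 (0.12–0.38). The lower level was thus found in cluster 3, whose depth was low but alike in both libraries, and the part of depth in it was not tested. The clusters were also unlike in endothelial markers. Ednrb was at 388 CPM injured and 418 CPM control in cluster 3, and at 18.6 CPM and 23.3 CPM in cluster 12. Plvap was at 138 CPM and 490 CPM in cluster 3, and at 781 CPM and 946 CPM in cluster 12. Thinning to 1000 UMIs kept 58 of 92 injured and 234 of 392 control cells of the class and left out most of cluster 3. It put the log2 ratio of the class at -0.01 in place of -0.47, and leaving doublets in put it at -2.11. The other member with 20 counts here, Cxcr4, was lower from 4 UMIs against 27, with a log2 ratio of -0.70 that turned to 0.24 with doublets left in and to 0.13 as a mean over cells, beside 19.0% of 7547 genes lower and 20.2% higher, and the other scalings move the zero by 0.03 and 0.10.

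To set the mix of classes apart from the level within them, class levels were averaged over 10 classes with equal weights in both libraries, the mean of their UMI shares. Cxcr2 then stood at 73.8 CPM injured against 78.9 CPM control, a ratio of 0.93, where the same classes with their own weights gave 111 CPM against 38.9 CPM. Cxcl2 had a ratio of 1.07 (632 CPM against 259 CPM with own weights) and Cxcl12 a ratio of 0.85 (23.6 CPM against 80.7 CPM with own weights). Most of the difference over all cells in these 3 genes was thus absent with equal weights. For Cxcl2 this did not mean like levels within classes. Neutrophil-like cells had 6494 CPM injured against 4669.9 CPM control, and alveolar macrophage-like cells 103 CPM against 265 CPM, in opposite directions. With the control shares as weights the Cxcl2 ratio was 0.92. Interstitial macrophage-like cells, of which the control library had 11, were not among the 10 classes. At the mean weights Cxcl3 had a ratio of 2.87 and Cxcr4 of 1.18. For Cxcl15 it was 0.59, but 1.86 with the UMI shares of the control library as weights, so the direction depends on how much the alveolar epithelial-like class counts.

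Other genes of the pathway were followed in 8 lists, by the same size rule. Of 6 other CXC ligands with 20 counts over all cells 5 were higher (Pf4, Cxcl16, Cxcl17, Cxcl14 and Ppbp) and none lower, beside the 20.5% of all genes higher and 15.9% lower. Cxcl16, a membrane-bound ligand, was 9.19-fold higher at 181 CPM against 19.7 CPM. Pf4, a platelet chemokine also made by macrophages, was 30.4-fold higher and is itself among the interstitial macrophage markers, a class of 341 injured and 11 control cells. Cxcl17, an epithelial chemokine, was 4.89-fold higher. Cxcl10, an interferon-induced ligand of Cxcr3, had 6.66 CPM against 8.87 CPM, under the rule, and in neutrophil-like cells it was 5.45-fold lower, from 20 UMIs against 32.

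Of 8 other CXC and atypical receptors 1 was higher (Ackr1, from 18 UMIs against 2) and 5 were lower (Cxcr5, Cxcr1, Cxcr3, Ackr4 and Ackr2), beside the same 20.5% and 15.9%. Cxcr5, which leads B cells into follicles, was 5.73-fold lower at 45 UMIs against 207. Cxcr3, a receptor of T and natural killer cells, was 2.16-fold lower at 67 UMIs against 116. B cell-like cells numbered 58 injured and 316 control, and their part in the Cxcr5 value was not tested. Cxcr1, a relative of Cxcr2, was 6.35-fold lower at 21 UMIs against 107, of which neutrophil-like cells held 14 and 1.

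Genes of neutrophil homing were followed inside the neutrophil-like class, where 12 of 13 had 20 counts, 3 were higher (Ltb4r1, Fpr2 and Cd44) and 2 lower, among them Fpr1, beside 50.6% of all genes of the class higher and 9.27% lower. Csf3r, the receptor of the neutrophil growth factor G-CSF, was at 2082 CPM against 2165 CPM, a ratio of 0.96, and so was near Cxcr2 in its ratio. Ltb4r1, a leukotriene receptor, was 3.40-fold higher, Fpr2 1.91-fold higher, and Fpr1, a receptor of formyl peptides, 1.56-fold lower. Over all cells 4 of 13 were higher (Ccr1, Csf3r, Itgam and Ltb4r1) and 5 lower, among them Fpr1 and Fpr2, beside 20.5% and 15.9% of all genes. The median gene of this class lay at a log2 ratio of 0.47, and the other scalings move its zero by 0.39 to 0.58. The ratio of Csf3r thus lay below that of the median gene.

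Of 11 genes listed for aged or tissue neutrophils 6 were higher and 3 lower in neutrophil-like cells, so that the higher share was near the 50.6% of all genes of the class, of which 9.27% were lower. Siglecf was 9.44-fold higher, Cd63 2.37-fold and Hif1a, the oxygen-sensing factor, 2.57-fold, and Csf1 had 729.8 CPM against 365 CPM. The chemokine genes Ccl3 and Ccl4, which attract monocytes, were 4.07-fold and 4.57-fold lower, so chemokines of the same class differed in opposite directions from Cxcl3. Of 7 granule and maturation genes 3 were higher (Chil3, Ngp and Ltf) and 1 lower, the gelatinase Mmp9 at 1.63-fold, again beside 50.6% and 9.27%. Ltf, lactoferrin, had 41 UMIs against 0, at least 4.01-fold higher against 3 counts in the control class. Lcn2 and Retnlg had ratios of 0.89 and 0.95.

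Of 10 genes of the NF-kB response 3 were higher (Ier3, Rela and Nfkb1) and none lower in neutrophil-like cells, a smaller higher share than the 50.6% of all genes of the class, of which 9.27% were lower. Ier3, an early response gene, was 3.76-fold higher at 2425 CPM against 644 CPM. The inhibitor genes Nfkbia (0.97) and Tnfaip3 (0.89) had ratios under the rule, as did Nfkbiz (0.86). Of 3 upstream cytokines with 20 counts in the class Tnf was 10.5-fold higher (179 UMIs against 5), Il1a 9.54-fold higher (65 against 2) and Il1b, an inducer of CXC ligands, 1.74-fold lower at 11935 CPM against 20780.2 CPM. Over all cells 3 of 8 upstream cytokines were higher (Il33, Csf3 and Il17a) and 2 lower (Tnf and Csf2), beside 20.5% and 15.9% of all genes. Csf3, the gene of G-CSF, had 25 UMIs against 0, at least 6.69-fold higher against 3 counts in the control library. Median log2 ratios in neutrophil-like cells were 0.01 for the NF-kB list, 0.75 for the aged or tissue list and -0.05 for the homing list, beside 0.47 for all genes.

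Of 7 vascular adhesion partners with 20 counts 3 were higher (Icam1, Vcam1 and Selp) and 3 lower (Pecam1, Jam2 and Jam3) over all cells, beside 20.5% of all genes higher and 15.9% lower. Icam1, a ligand of neutrophil integrins, was 2.62-fold higher at 141 CPM against 54.0 CPM, and in neutrophil-like cells 3.63-fold higher. Pecam1, found throughout endothelium, was 3.01-fold lower, beside 92 injured and 392 control endothelial-like cells. Over all cells 7 of 8 granule genes, 6 of 11 aged or tissue genes and 1 of 10 NF-kB genes were higher, with 0, 2 and 0 lower, to be read against the same 20.5% and 15.9%.

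The genes most like each member were ranked by Pearson correlation of log2(CPM + 10) over 25 class and library sums, among 11121 genes, as a description of sums that share library and depth. Cxcr2 was most like Nlrp12 (0.98), Mmp9, Acod1 and Stfa2l1. Cxcl2 was most like Trem1 (0.94), Cd33, Siglece and Hcar2, and Cxcl3 most like Tarm1 (0.87), Ngp, Stfa2 and Entpd3. Cxcl15 was nearest to Atp6v1c2 (0.99), Smim6, Sfta2 and Sftpa1, the last a surfactant protein gene, and Cxcl12 to Cdr2l (0.99), Mfap2, Meis2 and Pcsk5. Cxcr4 was nearest to Gmip (0.90), Arhgap25, Grk2, a kinase of G protein-coupled receptors, and Stk17b. Cxcl1 was nearest to Ctsl (0.80), Ecm1, Adamtsl4 and Inhba, and had 0.26 with Cxcl2. Within the set Cxcl2 and Cxcr2 were the most alike pair (0.87) and Cxcl15 and Cxcr4 the least (-0.65). Cxcl5 had too few counts to rank. The lists depend on the measure. By rank (Spearman) correlation only Ctsl for Cxcl1, Sfta2 for Cxcl15, and Gmip and Arhgap25 for Cxcr4 stayed among the 4 nearest. Cxcl2 was then nearest to Osm, Picalm, Trpv2 and Lilr4b, and no listed gene stayed for Cxcl2, Cxcl3, Cxcr2 or Cxcl12.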

How the data were processed

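Whole lung digests, 1 injured and 1 control library, were measured. The authors deposited raw UMI counts by gene and barcode, without normalization; Cell Ranger 4.0.0 made them per the file headers. Aligner and counter versions in the submitters' processing notes (STAR 2.7.2c, featureCounts 1.6.3) have no stated role here. The 8 genes, the gene lists and the markers were chosen with earlier results of these data known.

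Barcodes needed 500 UMIs, 200 genes and at most 15% mitochondrial counts, which took out 356 of 2702 injured and 332 of 2674 control barcodes. Another 44 in each library were taken out as doublets, scored against simulated doublets. Cells were clustered by the Leiden method from 2000 variable genes without the 8 members, 30 principal components and 20 neighbours. A cluster took the name with most markers among its 10 leading genes that also had most markers, and at least 3, at 3-fold and in 20% of cells. Cluster 12 had no leading marker and was named from 10 of 12 passing endothelial markers, a choice made after the clusters were seen. T cell and ILC2 clusters were joined (cluster 8 led on one list and passed more markers of the other), as were alveolar type 1 and type 2 clusters.

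Counts summed by class gave CPM with exact Poisson limits and ratios with exact conditional limits, in classes with 50 cells in each library. The genes named are the 8 members, the 3 highest and 3 lowest of each list by log2 ratio over all cells with 20 counts, the 4 most like each member, and class markers; 1 gene of the homing list is not reported here. Ackr2, Ackr4, Ltb4r1, Cd44, Chil3, Ngp, Rela, Nfkb1, Il17a and Selp, named to complete small counts, and Siglecf with Csf1 as a split of cells were picked with their values already seen. Python 3.11.15, numpy 2.4.6, scipy 1.17.1, scikit-learn 1.9.0, python-igraph 0.11.9 and leidenalg 0.10.2 were used. On data simulated at the depth of the neutrophil-like class (6258 genes), 88% of genes with a true log2 ratio of 1 and 80% of those with -1 passed the size rule, as did 18.5% of unchanged genes. Over all cells (14573 genes) these were 100%, 96% and 4.16%. The simulation drew Poisson counts around summed counts, with no uneven spread over cells and no shift of the median gene. These shares therefore cover counting error only.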

Additional observations from a re-analysis of the deposited data

Results flagged for a closer look

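In 4 cases a gene differed in opposite directions in a pair of classes; the values are log2 ratios, injured over control with 10 CPM added, and with 1 library per group the difference between classes was not tested. Cxcl15 was 1.94 in secretory cell-like and -4.19 in alveolar epithelial-like cells, a gap of 6.13. The alveolar epithelial-like value compares unlike cells. Of its injured cells 83 lay in type 1-like cluster 18, and of its control cells 63 lay in type 2-like cluster 20. Within cluster 20 Cxcl15 stood at 2959.8 CPM in 18 injured cells against 7609 CPM in 63 control cells. Cxcl3 was 3.19 in neutrophil-like and -0.52 in alveolar macrophage-like cells, a gap of 3.71. The alveolar macrophage-like value rests on 8 UMIs against 37 and turned to 0.14 as a mean over cells. Cxcl2 was 1.56 in T cell or ILC2-like and -1.28 in alveolar macrophage-like cells, a gap of 2.84. The thinned shares of T cell or ILC2-like cells lay near the B cell-like background, while their injured CPM lay above it. These UMIs are therefore not read as expression, and within cluster 8 of that class the ratio was 1.98 (1.12–3.68). Cxcr4 was 1.40 in T cell or ILC2-like and -0.85 in alveolar macrophage-like cells, a gap of 2.25.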

How the results depend on the processing

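Of 977 recomputed values, 791 stayed within counting error (counts of genes within 1.5 times), 179 moved further, and 7 past the size rule changed sign, as did 24 log2 ratios whose reported value was under the rule. The count of members higher over the whole library, 5, was within 1.5 times under every alternative run, but as a mean over cells Cxcr4 took the place of Cxcl5; the count lower, 1, was 3 as a mean over cells (Cxcl12, Cxcl15 and Cxcl5) and 2 with cells thinned to 1000 UMIs (Cxcl12 and Cxcl15). The following are log2 ratios. Cxcl2 in alveolar macrophage-like cells (-1.28) was -0.85 as a mean over cells, -1.52 thinned and -1.04 with 50 CPM added. Cxcl2 in neutrophil-like cells (0.47) was 1.16 with the libraries clustered separately, 0.24 as a mean over cells, 0.31 thinned, -0.10 with size factors, 0.08 with TMM and 1.13 within cluster 7. Cxcr2 there (-0.07) was -0.26, -0.64, -0.46 and -0.26 with separate clustering, size factors, TMM and cluster 7, and Cxcr4 (0.08) was -0.31, -0.49, -0.31 and -0.28. Cxcl15 in secretory cell-like cells (1.94) was 1.75 with a mitochondrial limit of 10%, 2.09 thinned, 1.58 with size factors and 1.27 with TMM. Cxcl12 in endothelial-like cells (-0.47) was -2.11 with no doublets removed and -0.01 thinned. Of values past the rule, signs changed as a mean over cells for Cxcl5 over the whole library (-0.10) and in secretory cell-like cells (-0.32), for Cxcl3 (0.14) and Cxcl15 (0.32) in alveolar macrophage-like cells and for Cxcr4 in endothelial-like cells (0.13, and 0.24 with no doublets removed), and for Cxcl15 at equal class weights (0.84 with the control shares). Of values under the rule, Cxcl15 over the whole library (0.13) was -1.23 as a mean over cells, -1.02 thinned, -0.07 with a mitochondrial limit of 10% and -0.03 without the highest cell of each library. Cxcl2 in conventional dendritic cell-like cells (0.22) was -2.14 with separate clustering, -1.96 with a mitochondrial limit of 25% and between -0.47 and -0.37 under 4 others. At equal class weights Cxcl2 (0.09) was -0.12 with the control shares and Cxcr4 (0.22) was -0.03 with the injured shares. Cxcl1 in alveolar macrophage-like cells (-0.01) stayed between -0.02 and 0.06. The causes were not tested. The cluster 7 values and those without the highest cell or the low-depth macrophage cluster were chosen after seeing the data. No paired analysis was possible because each group was 1 library.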
